A study of Homo sapiens with 10 samples.

Results

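Steroid hormone receptors and their p160 coactivators were examined in T47D cells, an established human luminal breast cancer cell line that carries receptors for oestrogen and progesterone. The members were chosen by symbol and number 6 of the 19695 genes in the deposited count tables. They are the receptors *ESR1* (oestrogen receptor alpha), *PGR* (progesterone receptor) and *NR3C1* (glucocorticoid receptor), and the coactivators *NCOA1*, *NCOA2* and *NCOA3*. RNA-seq was available for cells given control siRNA, *TRPS1* siRNA or *CHD4* siRNA, with 2 libraries in each group, and ChIP-seq for TRPS1 in 2 libraries with 2 inputs. No allele or hormone treatment is named for any group, and all cells grew in RPMI-1640 with fetal bovine serum. The knockdowns were transient, cells were collected 72 h after transfection, and the labels do not say which siRNA sequence was used. For *CHD4* the labels name an siRNA where the RNA-seq methods name an shRNA. The labels do not say whether the 2 replicates of a group came from separate cultures, so all p-values measure the spread between libraries, which may be technical.

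Steroid receptors are transcription factors that are switched by a lipid-soluble hormone. A receptor bound to its hormone recruits p160 coactivators, which in turn bring histone acetyltransferases and methyltransferases to the gene. In luminal breast cells, *PGR* is itself a classic target of the oestrogen receptor. TRPS1 is a zinc finger repressor of the GATA type, and CHD4 is the ATPase of the NuRD chromatin remodelling complex. The comparisons address what silencing either protein does to RNA in cells where TRPS1 binding was mapped.

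Totals per RNA-seq library ran from 10333138 to 14668358 counts, so that 3 counts, taken as the detection floor, equal 0.197 to 0.288 CPM (TMM-normalized CPM, which relates each count to its library's scaled total). The *TRPS1* transcript measured 1445 and 2269 CPM in control siRNA and 1166 and 722 CPM in *TRPS1* siRNA, a log2 fold change of -0.97 (standard error 0.39, edgeR adjusted p = 0.659). The *CHD4* transcript measured 300 and 285 CPM in control siRNA and 95.8 and 54.3 CPM in *CHD4* siRNA, a log2 fold change of -1.96 (standard error 0.42, edgeR adjusted p = 0.785). Both silenced transcripts were lower in both libraries of their group than in both controls, and neither difference passed the adjusted test. Control siRNA replicate 1 stood apart from the other 5 libraries, with a correlation of log2 CPM of 0.837 to 0.861 against 0.939 to 0.975 among the others. Every comparison with control siRNA below includes this library. Values without it are given for *ESR1*, *PGR*, *NR3C1* and *NCOA3*, while *NCOA1* and *NCOA2* have ranges with each library left out. They are also given for oestrogen receptor targets, for pioneer and partner factors and for targets of the progesterone and glucocorticoid receptors. In the other lists they are given only for some of the named genes. The luminal markers *KRT8*, *KRT18*, *KRT19*, *EPCAM*, *CDH1*, *GATA3* and *FOXA1* were present in all libraries. Markers of leukocytes and of endothelium each summed to at most 4.99 CPM, while those of fibroblasts reached 156 CPM through *COL1A1* with *COL1A2* and *COL3A1* at 2 counts or fewer. The fibroblast marker *PDGFRB* had 0 and 1 counts in control siRNA, 2 and 10 in *TRPS1* siRNA and 21 and 22 in *CHD4* siRNA.

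TRPS1 peaks clustered at *ESR1* and far upstream of *PGR*, and were sparse or absent at the other members. The deposited list holds 1844 peaks with positions on hg38 and neither a height nor a replicate value, and it does not state how the replicates were combined. Gene positions are those of RefSeq on GRCh38.p14, the same build. Of the 6 members, 4 had a peak inside the gene or within 100 kb of it, against 20.5% of 20052 coding genes. These 4 had 9 peaks in all, of which 6 lay at *ESR1*. At least as many peaks within 100 kb were found at 10 coding genes, 0.0499% of them, *ESR1* included. The span searched includes the gene itself, so it is wider for a long gene such as *ESR1* (472.9 kb). These shares are over coding genes of all lengths, and genes of like length were not compared.

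*ESR1* spans chr6:151656672-152129619 on the plus strand, 472.9 kb from its first annotated start to its end. Inside the gene lay 3 peaks. The peaks at chr6:151658174-151658405 and chr6:151658663-151659035 had their centres 1.6 kb and 2.2 kb downstream of the most upstream start site. The peak at chr6:151764280-151764638 lay 107.8 kb into the gene and 40.8 kb before the promoter window of the next start site downstream. Upstream, the peaks at chr6:151633413-151634436 and chr6:151632571-151632912 fell between genes, 22.2 kb and 23.8 kb from *ESR1*. The peak at chr6:151616163-151616385 lay 40.3 kb upstream, within the neighbouring gene *CCDC170*. The peak 22.2 kb upstream was 1024 bp wide, where the median peak was 288.0 bp. Of all coding genes 4.04% held a peak, and 0.14% held as many inside as *ESR1*, with no allowance for gene length.

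*PGR* spans chr11:101029624-101129813 on the minus strand and had no peak within 100 kb. Its nearest peak, at chr11:101334634-101334973, lay 204.8 kb upstream. Together with 6 more it formed a group of 7 peaks over 107.6 kb, all in the stretch between *PGR* and *TRPC6*, a cation channel gene. The last of these lay 311.9 kb from *PGR* and 9.3 kb from *TRPC6*. By distance to a start site, 3 of the 7 were nearest to *PGR* and 4 to *TRPC6*. The peaks at chr11:101334634-101334973 and chr11:101336092-101337081 overlapped a noncoding gene, *LOC105369458*. Of 17288 intervals between coding genes, 9 (0.0521%) held as many peaks, while 6.24% were as long as this interval of 321.8 kb. The peak at chr11:101336092-101337081 was 990 bp wide, a width that 0.813% of all peaks reached. The list of peaks alone cannot assign the group to any of these genes.

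*NR3C1* (chr5:143277931-143435512, minus strand) had 1 peak within 100 kb, at chr5:143183064-143183414, 94.5 kb past its 3′ end and inside *ARHGAP26*. *NCOA3* (chr20:47501887-47656872, plus strand) had 1, at chr20:47455278-47455499, 46.4 kb upstream and in no coding gene. *NCOA2* on chromosome 8 had 1, 58.7 kb away. *NCOA1* (chr2:24491254-24770702, plus strand) had the longest distance to a peak of the 6 members, 407.3 kb.

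**Figure D1:**
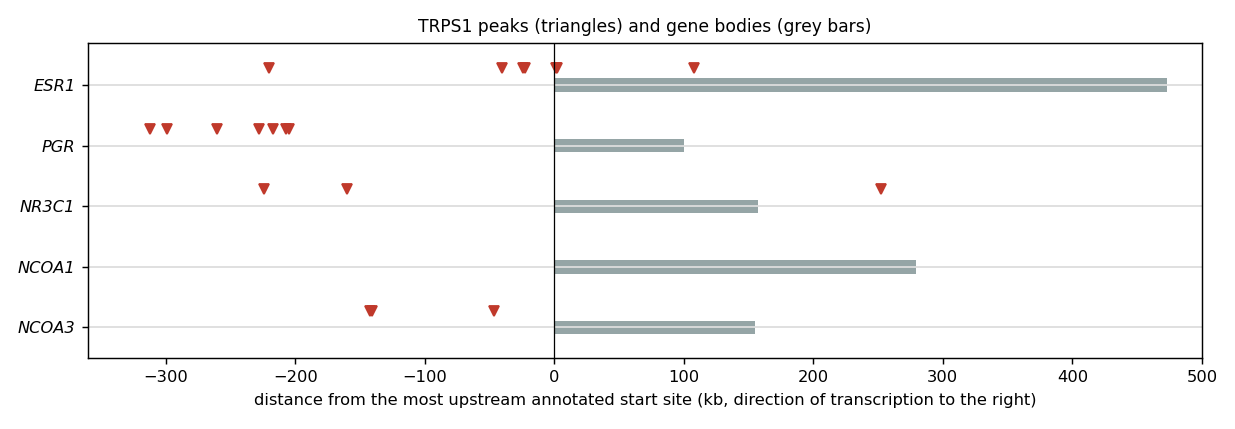
TRPS1 peaks (triangles) around the gene bodies (grey bars) of 5 members, in kb from the most upstream annotated start site, with transcription running to the right. *ESR1* carries 6 peaks within 100 kb, the 7 peaks between *PGR* and *TRPC6* start 204.8 kb upstream of *PGR*, and *NCOA1* has none in the range shown. *NCOA2* is left out because the gene table gives it no strand.

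RefSeq start sites were listed for 5 of the 6 members, 20 sites in all. The 250 bases before each were searched on both strands for AGATAA and, in turn, for the string AGATAG, for the string TGATAA and for the string TGATAG, which are the letters that GATA-type zinc fingers are known to favour. A string was present at 3 of the 20 member sites and at 22.3% of all 35116 listed start sites. No peak overlapped any of the 20 windows, as against 1.05% of all windows. The following sequences are shown because *ESR1* has the member start site nearest to a peak, 1.5 kb away, and because the remaining ones hold every string found. They run 5′ to 3′ on the gene's strand, with the strings in capitals.
ESR1, most upstream start site, chr6:151656422-151656671, plus strand: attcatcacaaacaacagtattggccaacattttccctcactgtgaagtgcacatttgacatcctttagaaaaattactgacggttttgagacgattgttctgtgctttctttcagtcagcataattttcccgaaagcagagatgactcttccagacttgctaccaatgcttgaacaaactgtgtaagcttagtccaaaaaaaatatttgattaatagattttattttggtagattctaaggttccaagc
PGR, most upstream start site, chr11:101129814-101130063, minus strand: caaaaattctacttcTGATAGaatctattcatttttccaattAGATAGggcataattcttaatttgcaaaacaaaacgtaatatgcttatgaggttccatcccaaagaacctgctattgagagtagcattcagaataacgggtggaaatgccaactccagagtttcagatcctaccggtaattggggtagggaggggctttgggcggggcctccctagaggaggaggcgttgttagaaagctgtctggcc
ESR1, around the string of its start site 4, chr6:151807005-151807034, plus strand: ttgtggaagggtCTATCTactttgggagca
NCOA1, around the string of its start site 3, chr2:24584227-24584256, plus strand: agaatgttaaTTATCTatattccattttat

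The *ESR1* window that is nearest to a peak held none of the 4 strings. The *PGR* window held TGATAG 235 bases before the start site and held AGATAG 208 bases before it, with its nearest peak 204.6 kb away. At *ESR1* start site 4, counted along the gene, AGATAG was read on the opposite strand, 179 bases before the start, and at *NCOA1* start site 3 AGATAA was read likewise, 240 bases before. A match of letters is a description and not a site of binding.

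*ESR1* encodes the receptor that drives growth of luminal breast cancer cells. It was counted 3653 and 5261 times in control siRNA, which is 268 and 397 CPM. In *TRPS1* siRNA it measured 198 and 235 CPM, and in *CHD4* siRNA 247 and 187 CPM. All 4 knockdown libraries were thus below both controls, and the knockdowns overlapped one another. Mean levels were 332 ± 91.4 CPM (SD, n = 2) in control siRNA, 216 ± 25.8 CPM in *TRPS1* siRNA and 217.0 ± 42.1 CPM in *CHD4* siRNA. The log2 fold change was -0.61 in both comparisons with control, with a standard error of 0.35 for *TRPS1* siRNA and 0.38 for *CHD4* siRNA. Neither passed the test (edgeR adjusted p = 0.666 and 0.798), and the 95% intervals ran from -1.46 to 0.23 and from -1.51 to 0.29. Without control siRNA replicate 1 the values were -0.87 (edgeR adjusted p = 0.0661) and -0.85 (edgeR adjusted p = 0.242). Since both comparisons share their controls, their likeness is not independent. In the direct comparison *CHD4* siRNA differed from *TRPS1* siRNA by 0.01 on the log2 scale, with an interval from -0.47 to 0.49.

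The summed level of luminal epithelial markers was lower along with *ESR1*, through the keratins *KRT8*, *KRT18* and *KRT19*. The 7 markers summed to 13770 and 8966 CPM in control siRNA, to 5084 and 5241 CPM in *TRPS1* siRNA and to 5106 and 4243 CPM in *CHD4* siRNA. In *TRPS1* siRNA 3 of the 7 were below both controls (21.3% of all genes were), and in *CHD4* siRNA 4 of the 7 (19.7% of all genes were). *EPCAM* was not lower, with 67.9 and 129 CPM in control siRNA and 108 to 135 CPM in the knockdowns, and *FOXA1* overlapped control in both knockdowns. Basal markers summed to 1.89 to 2.42 CPM in control siRNA and to 6.04 to 24.9 CPM in the knockdowns, nearly all of it *TP63*, while *KRT5* and *KRT14* stayed at 6 counts or fewer. The part of these shifts in the *ESR1* values was not tested, and in bulk RNA fewer cells of a type cannot be told apart from less RNA per cell.

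*PGR* varied most between the 2 control siRNA libraries. It was counted 9206 and 27617 times in the control siRNA libraries, 674 and 2084 CPM, a wider range than in any other group. It measured 965 and 751 CPM in *TRPS1* siRNA and 1722 and 887 CPM in *CHD4* siRNA. Every knockdown library lay between the 2 controls. The log2 fold change was -0.68 for *TRPS1* siRNA (standard error 0.54, edgeR adjusted p = 0.709) and -0.07 for *CHD4* siRNA (standard error 0.58, edgeR adjusted p = 0.982). The direction of *PGR* depended on which control was used. Against the control at 2084 CPM alone, with replicate 1 dropped, the *TRPS1* siRNA value was -1.27. Against the control at 674 CPM alone, with replicate 2 dropped, the value was 0.35. No call is drawn for *PGR* from a fit with a single control library. For *CHD4* siRNA the same 2 values were -0.66 and 0.96. Within a library, where scaling plays no part, *PGR* had 2.52 and 5.25 times as many counts as *ESR1* in control siRNA, 4.87 and 3.2 times in *TRPS1* siRNA and 6.98 and 4.74 times in *CHD4* siRNA.

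*NR3C1*, the receptor for cortisol, was low in every library, at 7 to 29 counts. It was counted 7 and 16 times in control siRNA, 18 and 18 times in *TRPS1* siRNA and 29 and 24 times in *CHD4* siRNA. As CPM these are 0.513 and 1.21, 1.73 and 1.18, and 2.71 and 1.93. Both *CHD4* siRNA libraries were above all others, and *TRPS1* siRNA overlapped control. For *TRPS1* siRNA against control the gene was too low to enter the test, and without the filter on low counts its log2 fold change was 0.72 (standard error 1.12, edgeR adjusted p = 0.827). For *CHD4* siRNA the value was 1.43 (standard error 0.83, edgeR adjusted p = 0.792), and it entered the test only through the *CHD4* siRNA libraries. The value was 0.95 without control siRNA replicate 1 (edgeR adjusted p = 0.466). It was 2.16 without control siRNA replicate 2 (edgeR adjusted p = 0.0355), where the only control left had 7 counts, and no call is drawn from a gene that entered through its high group.

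**Figure D2:**
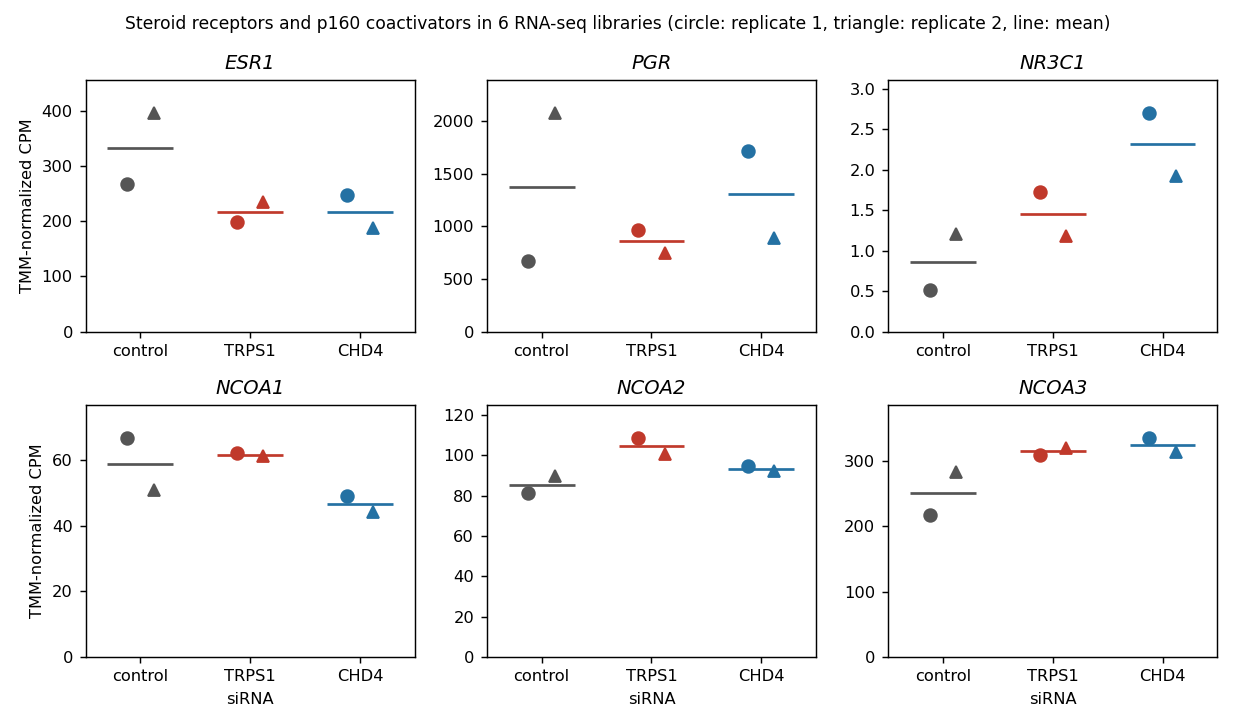
TMM-normalized CPM of each member in the 6 RNA-seq libraries, on a scale of its own from 0, with replicate 1 as circles, replicate 2 as triangles and the mean of 2 as a line. *ESR1* is below both controls in all 4 knockdown libraries, every knockdown library of *PGR* lies between the controls, and *NCOA3* is above both controls in all 4.

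The log2 fold changes of the 3 p160 coactivators lay between -0.40 and 0.38 in the 3 comparisons. *NCOA1* (SRC-1), the founding member of the family, measured 66.7 and 50.9 CPM in control siRNA, 62.0 and 61.2 CPM in *TRPS1* siRNA and 48.9 and 44.0 CPM in *CHD4* siRNA. The *TRPS1* siRNA libraries lay between the controls, and the *CHD4* siRNA libraries were below all others. The log2 fold change against control was 0.07 for *TRPS1* siRNA (standard error 0.34, edgeR adjusted p = 0.951) and -0.33 for *CHD4* siRNA (standard error 0.39, edgeR adjusted p = 0.850). With each library left out in turn, these values ran from -0.11 to 0.28 and from -0.51 to -0.11. *CHD4* siRNA against *TRPS1* siRNA gave -0.40 with an interval from -0.78 to -0.02 and an edgeR adjusted p of 0.306, so the difference did not pass the correction in this unpaired fit. It did pass in a fit blocked by replicate number, which is given with the other settings below.

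*NCOA2* (GRIP1), a partner of the glucocorticoid receptor among others, measured 81.3 and 89.8 CPM in control siRNA, 109 and 101 CPM in *TRPS1* siRNA and 94.6 and 92.2 CPM in *CHD4* siRNA. The 3 groups did not overlap and ranked control, *CHD4* siRNA, *TRPS1* siRNA from low to high. *TRPS1* siRNA differed from control by 0.30 on the log2 scale (standard error 0.32, edgeR adjusted p = 0.771), *CHD4* siRNA by 0.14 (standard error 0.36, edgeR adjusted p = 0.936), and the knockdowns by -0.16 from each other (standard error 0.14, edgeR adjusted p = 0.656). None of these passed the test. With each library left out in turn, the values against control ran from 0.23 to 0.37 for *TRPS1* siRNA and from 0.076 to 0.21 for *CHD4* siRNA.

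*NCOA3* (AIB1), a coactivator known for its amplification in breast cancer, measured 218 and 283 CPM in control siRNA, 309 and 321 CPM in *TRPS1* siRNA and 336 and 315 CPM in *CHD4* siRNA. All 4 knockdown libraries were above both controls and overlapped one another. The log2 fold change was 0.33 for *TRPS1* siRNA (standard error 0.32, edgeR adjusted p = 0.750) and 0.38 for *CHD4* siRNA (standard error 0.35, edgeR adjusted p = 0.821). Without control siRNA replicate 1 these values were 0.16 and 0.22. Counts of *NCOA3* were 3.27 and 5.57 times those of *NCOA1* in the control siRNA libraries, 4.98 and 5.25 times in *TRPS1* siRNA and 6.86 and 7.14 times in *CHD4* siRNA.

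Across all genes, the call used here was a fold change over 2 with an unadjusted p under 0.05. None of the 5 tested members passed it in *TRPS1* siRNA, where 5.87% of 12921 genes did. None of the 6 passed in *CHD4* siRNA, where 5.45% of 12918 genes did, and none passed between the knockdowns, where 3.67% of 13143 genes did. At an adjusted p under 0.05 edgeR's quasi-likelihood test called 0 genes in each of the 3 comparisons, with 902 (6.98%), 769 (5.95%) and 2023 (15.4%) genes at an unadjusted p under 0.05. DESeq2 called 37, 50 and 456 genes at that adjusted level. In *TRPS1* siRNA 3 of the 5 tested members did not overlap control, against 44.1% of all genes. Of these *ESR1* was lower (21.3% of all genes were) and *NCOA2* and *NCOA3* were higher (22.8% of all genes were). In *CHD4* siRNA 5 of 6 did not overlap control, against 39.8% of all genes, and *NR3C1* among them entered through its high group. *ESR1* and *NCOA1* were lower (19.7% of all genes were), and *NR3C1*, *NCOA2* and *NCOA3* were higher (20.1% of all genes were). Between the knockdowns 3 of 6 did not overlap, against 47% of all genes. In *CHD4* siRNA *NCOA1* and *NCOA2* were then lower (23.8% of all genes were) and *NR3C1* higher (23.3% of all genes were). *NR3C1* entered this comparison, too, only through the *CHD4* siRNA libraries, where it is higher.

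**Figure D3:**
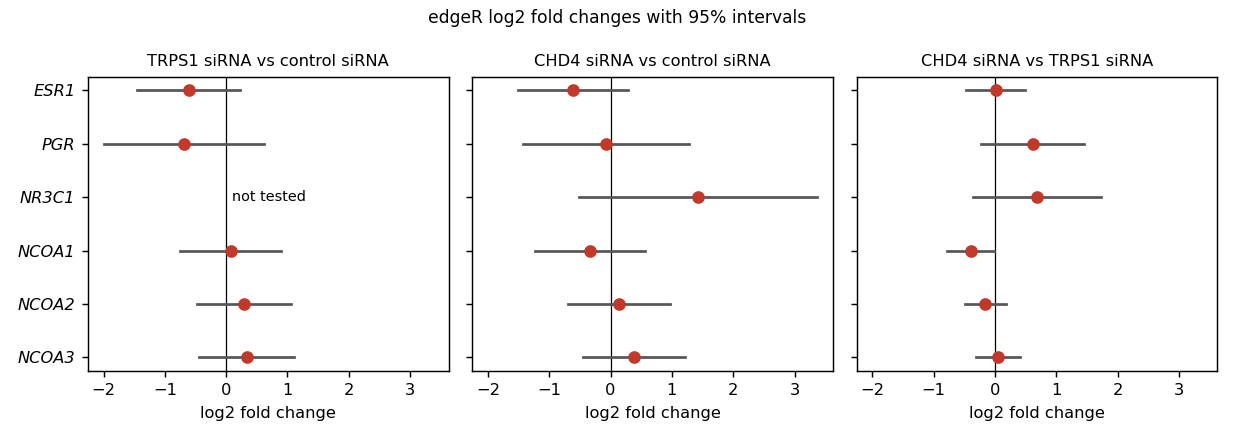
edgeR log2 fold changes (points) with 95% intervals (bars) of the members in the 3 comparisons of 2 libraries against 2. In both comparisons with control all intervals cross 0, and between the knockdowns that of *NCOA1* ends at -0.02.

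**Figure D4:**
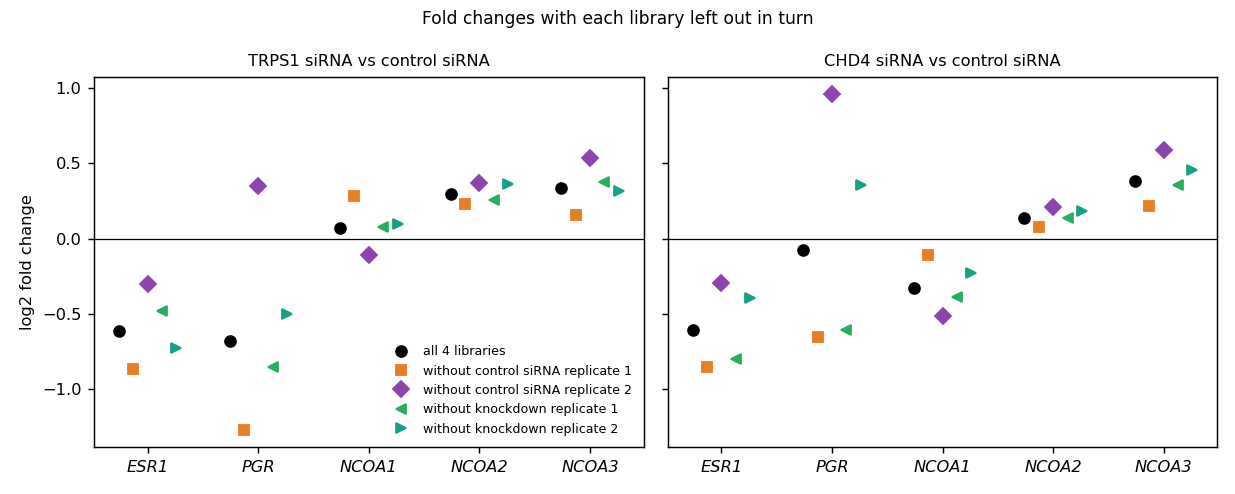
Log2 fold changes of 5 members against control siRNA with all 4 libraries and with each library left out. *PGR* in *TRPS1* siRNA spans -1.27 to 0.35 and changes sign with the control that is dropped, while *ESR1*, *NCOA2* and *NCOA3* keep theirs in both comparisons.

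Pairs of members were also compared over the 6 libraries, as a description, since the points share groups and a library that stands apart. *NR3C1* and *NCOA3* had the highest correlation of log2 CPM (r = 0.91), followed by *NCOA2* and *NCOA3* (r = 0.742) and by *ESR1* and *PGR* (r = 0.603). The lowest was that of *NR3C1* and *NCOA1* (r = -0.694). Among 12827 genes, the profile most like that of *ESR1* belonged to *PLK2* (r = 0.984) and *UTP11* (0.976), and that most like *PGR* to *COX7A2* (0.983) and *TMEM185A* (0.975). For *NR3C1* they were *RAB3B* (0.993) and *ADAMTS20* (0.992), and for *NCOA1* *NGEF* (0.999) and *LOC283788* (0.992). For *NCOA2* they were *ERCC6* (0.991) and *SIRT5* (0.987), and for *NCOA3* *SNAI3-AS1* (0.996) and *DIXDC1* (0.996). *NCOA3* had 443 genes with r over 0.95 and *ESR1* had 13.

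Genes around these receptors were followed in 7 lists. Oestrogen receptor targets, the longest list with 20 genes, had the most calls. By share of tested genes, 15.8% were called in *TRPS1* siRNA and 33.3% in *CHD4* siRNA, against 25% of pioneer and partner factors in each. At a fold change over 2 and p under 0.05, 3 of 19 tested targets were lower in *TRPS1* siRNA (3.17% of all genes were) and 6 of 18 in *CHD4* siRNA (2.85% of all genes were), and none was higher. The median log2 fold changes were -0.41 and -0.65, against -0.02 for all genes in both comparisons. Without control siRNA replicate 1, no target was called in *TRPS1* siRNA (2.4% of all genes were lower in that fit and 5.71% higher). Among the 6 lower calls in *CHD4* siRNA, *PDZK1* was then at -1.92, *CXCL12* at -1.32, *STC2* at -1.05 and *CCND1* at -1.0004 on the log2 scale. A value past a fold of 2 is not by itself a call. With a single control library left, only effect sizes are given for these genes. *MYC* went to -0.71 and *SLC9A3R1* to -0.56, both under a fold of 2. *AGR2* and *AREG*, named after their values were seen and not called with all libraries, went from -0.91 to -1.02 and from 0.39 to 1.02. Both were then past a fold of 2 in *CHD4* siRNA, *AGR2* lower and *AREG* higher. The medians without that control were -0.06 in *TRPS1* siRNA and -0.46 in *CHD4* siRNA. Of the 3 targets called in *TRPS1* siRNA, *CCND1* then went to -0.91 and *CA12* to -0.86 on the log2 scale, under a fold of 2. *KCNK15*, a potassium channel gene named after its values were seen, went from -1.86 to -0.45. *CCND1* (cyclin D1, which drives entry into S phase) measured 590 and 420 CPM in control siRNA, 225 and 220 CPM in *TRPS1* siRNA and 210.2 and 204.8 CPM in *CHD4* siRNA. Its log2 fold changes were -1.18 and -1.28 (edgeR adjusted p = 0.659 and 0.792). *CA12* (carbonic anhydrase 12) gave -1.04 and -0.65, with all 4 knockdown libraries below both controls. *CXCL12*, a chemokine, gave -0.41 and -1.21.

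*PDZK1*, a scaffold protein gene that oestrogen induces, took opposite sides of the controls in the knockdowns. It measured 71.1 and 109 CPM in control siRNA, 162 and 145 CPM in *TRPS1* siRNA and 31.4 and 25.4 CPM in *CHD4* siRNA. No group overlapped another. *CHD4* siRNA was lower than *TRPS1* siRNA by a log2 fold change of -2.43 (standard error 0.18, edgeR adjusted p = 0.0904), which did not pass the correction. Against control, its values were 0.78 for *TRPS1* siRNA and -1.65 for *CHD4* siRNA, and 0.50 and -1.92 without control siRNA replicate 1. Of the 19 targets tested between the knockdowns 3 were called lower in *CHD4* siRNA (1.56% of all genes were) and none higher (2.12% of all genes were). They were *PDZK1* and, named after their values were seen, *STC2* and *TFF1*, and *TFF1* entered that test only through the *TRPS1* siRNA libraries, where it is high.

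Pioneer and partner factors of the oestrogen receptor had negative log2 fold changes in 7 of 8 cases in each knockdown, with 2 of 8 called lower (3.17% and 2.85% of all genes were) and medians of -0.73 and -0.81. Leaving out control siRNA replicate 1, 5 and 6 of 8 were negative, 1 of 8 was called lower in each (2.4% and 2.06% of all genes were), and the medians were -0.34 and -0.33. *XBP1*, a transcription factor of the unfolded protein response, measured 1385 and 1369 CPM in control siRNA, 740.1 and 603 CPM in *TRPS1* siRNA and 874 and 463 CPM in *CHD4* siRNA (log2 fold change -1.03 in each). *SPDEF*, an ETS factor of luminal cells, had 286 and 103 CPM in control siRNA and 63.1 to 93.3 CPM in the knockdowns. Both were past the fold and p threshold in both comparisons, and without control siRNA replicate 1 *SPDEF* was past it in neither. The summed luminal markers, of which the list shares *GATA3* and *FOXA1*, were lower in the same libraries as given above, and their part was not tested.

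Receptors outside the members did not pass the threshold in either knockdown (4 of 6 listed were tested). The mineralocorticoid receptor *NR3C2* had log2 fold changes of 0.83 and 1.04 for *TRPS1* siRNA and *CHD4* siRNA, and *ESR2* of 0.65 and 1.22 (edgeR adjusted p at least 0.659 for each). These became 0.55 and 0.77 for *NR3C2* and 0.14 and 0.71 for *ESR2* without control siRNA replicate 1. Of 17 partners of the p160 proteins and other coactivators, 1 was higher in each knockdown (2.7% and 2.6% of all genes were). It was *PPARGC1A*, the coactivator PGC-1 alpha, at 1.98 and 2.72 CPM in control siRNA, 9.40 and 7.02 CPM in *TRPS1* siRNA and 19.3 and 6.66 CPM in *CHD4* siRNA. With 27 and 36 counts in control siRNA, it passed the low-count filter only with the knockdown libraries, where it is high. No call is therefore drawn from it. *PELP1*, a scaffold for receptor signalling, gave -0.86 and -0.58 and did not pass, and without control siRNA replicate 1 it gave -0.18 and 0.099. Among 7 corepressors, 1 was called lower in *TRPS1* siRNA (3.17% of all genes were) and 1 higher in *CHD4* siRNA (2.6% of all genes were). The first, *PHB2* (REA, a repressor of oestrogen receptor activity), had 109 and 52.5 CPM in control siRNA and 21.5 and 11.3 CPM in *TRPS1* siRNA. The second, *LCOR*, had 36.7 and 107 CPM in control siRNA and 183 and 192 CPM in *CHD4* siRNA. The *LCOR* call was lost without control siRNA replicate 1 (log2 fold change 0.82, from 1.39), while the *PHB2* call held (-1.69, from -2.30).

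Of 10 receptor chaperones, 1 was called lower in *CHD4* siRNA (2.85% of all genes were) and 0 were called in *TRPS1* siRNA. It was *FKBP4* (FKBP52, an HSP90 cochaperone of steroid receptors). It measured 938 and 690 CPM in control siRNA, 468 and 458 CPM in *TRPS1* siRNA and 382 and 337 CPM in *CHD4* siRNA, with log2 fold changes of -0.81 and -1.17. All 4 knockdown libraries were below both controls. The HSP70 cochaperone *DNAJA1* was above both controls in all 4, with log2 fold changes of 0.65 and 0.80 that did not pass the threshold. Without control siRNA replicate 1 the *FKBP4* value in *CHD4* siRNA was -0.92 and no longer past a fold of 2. Targets of the progesterone and glucocorticoid receptors gave no call among 11 tested genes in either knockdown (5.87% and 5.45% of all genes were called), with medians of -0.12 and -0.11. Both medians changed sign without control siRNA replicate 1, to 0.18 and 0.22, with 9 and 8 of 11 genes positive. *MT2A*, a metallothionein that glucocorticoids induce, had 34.3 and 5.58 CPM in control siRNA, 6.04 and 10.8 CPM in *TRPS1* siRNA and 3.64 and 13.6 CPM in *CHD4* siRNA, so its groups overlapped, and its values of -1.23 and -1.20 became 0.62 and 0.65 without control siRNA replicate 1. *HSD11B2*, the enzyme that inactivates cortisol, was high in control siRNA replicate 1 alone (16.4 CPM) and measured 4.22 to 5.58 CPM in the other 5 libraries.

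**Figure D5:**
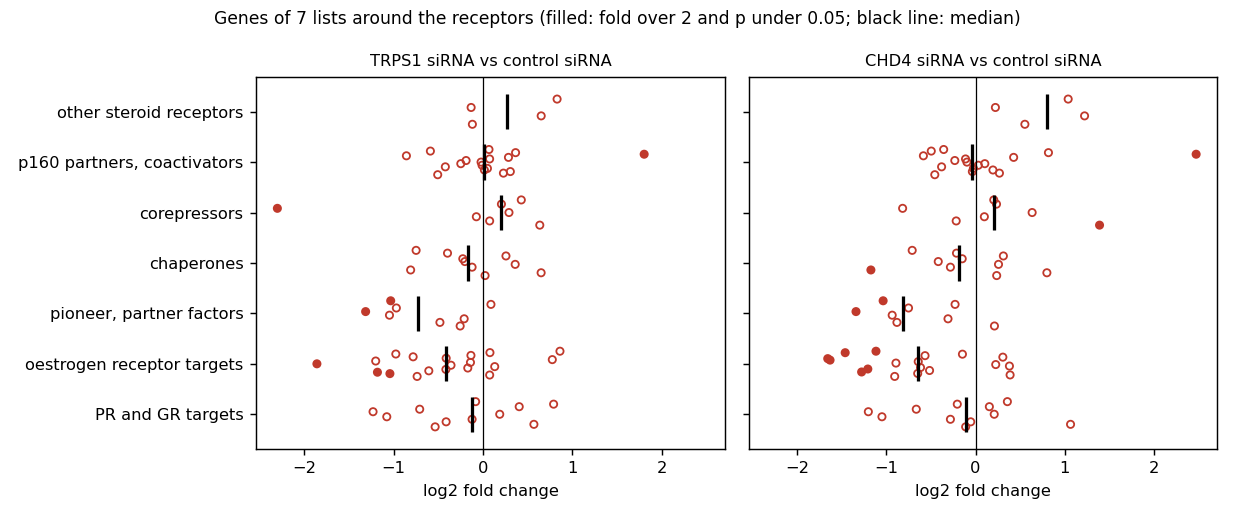
Log2 fold changes against control siRNA of the tested genes in 7 lists, with genes past a fold of 2 and p of 0.05 filled and the median of each list as a black line. The medians of oestrogen receptor targets are -0.41 and -0.65 and those of the pioneer and partner factors -0.73 and -0.81, while those of progesterone and glucocorticoid receptor targets are -0.12 and -0.11. The last change sign without control siRNA replicate 1.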

How the data were processed

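RNA-seq and TRPS1 ChIP-seq from T47D cells were examined, grouped by the labelled condition. Per the paper's methods, the authors depleted ribosomal RNA, used STAR to align the RNA-seq reads and HTSeq to count them by gene. The deposited counts are raw, in 1 table per knockdown with shared controls. ChIP-seq reads were aligned with BWA (0.7.12-r1039) and peaks called with MACS2 (2.1.1). The deposited peak positions are unscored. Tool versions (HTSeq 0.9.0, CASAVA 1.8) and the build hg38 come from the submitters' processing notes. The annotation used for counting and its strand setting are not given in the sources used here.

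Per comparison, genes above 2 CPM in 2 or more of 4 libraries were kept, scaled by TMM and tested with edgeR's quasi-likelihood F-test (edgeR 4.0.16, R 4.3.3, prior count 0.125) with Benjamini-Hochberg adjustment over all genes tested. Standard errors were derived from the F statistic (absolute log2 fold change over the root of F). Levels in the text are CPM from 1 TMM scaling of the 6 libraries. Calls use the paper's threshold (fold over 2, p under 0.05). With 2 against 2 libraries an exact permutation test cannot go below p = 0.3333, so none was run on single genes. The fit was tested on simulated data. DESeq2 (1.42.0), other scalings, filters and designs were alternatives.

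Gene spans, start sites and promoter sequence are from RefSeq (GRCh38.p14), and 5 of 6 members matched the promoter table. No exon lengths were used, so a ratio of counts between genes is read only across libraries and not as a difference in level. The members and gene lists were chosen with earlier results of these data known. Named list genes are those past the threshold (at most 4 per list, smallest p first), and otherwise those with the largest fold changes until 2 are named. Sequence of the peaks was not analysed here.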

Additional observations from a re-analysis of the deposited data

How the results depend on the processing

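*ESR1*, *NCOA2* and *NCOA3* kept their direction against control siRNA in all alternatives run, with *ESR1* between -0.87 and -0.29 on the log2 scale. *PGR* did not. In *CHD4* siRNA its value of -0.07 became 0.03 with library sizes alone and 0.067 with the replicate block. Leaving out 1 library gave *PGR* values of -1.27 to 0.35 in *TRPS1* siRNA, -0.66 to 0.96 in *CHD4* siRNA and 0.05 to 1.03 between the knockdowns. The same ranges were -0.11 to 0.28 for *NCOA1* in *TRPS1* siRNA, 0.95 to 2.16 for *NR3C1* in *CHD4* siRNA, and -0.21 to 0.21 for *ESR1* and -0.0010 to 0.11 for *NCOA3* between the knockdowns. That of *NR3C1* covers only the 2 fits that left out a control. Without either *CHD4* siRNA library it was not tested. The *CHD4* transcript in *TRPS1* siRNA ran from -0.10 to 0.061, with 0.091 under library sizes alone and 0.015 where every library had to pass the filter, and the *TRPS1* transcript in *CHD4* siRNA ran from -0.20 to 0.49. The cause was not tested.

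In *TRPS1* siRNA 34 genes (likelihood ratio test), 37 (DESeq2) and 32 (replicate block) passed an adjusted p of 0.05, in *CHD4* siRNA 58, 50 and 44 with 111 without a filter on low counts, and between the knockdowns 570, 456 and 3372 with 424 without a filter. Genes past the fold and p threshold numbered 759, 704 and 483. Without a filter they numbered 1359, 1403 and 751, with the replicate block 1221 in *TRPS1* siRNA, and with the filter in every library 313 between the knockdowns. Calls among the list genes in *TRPS1* siRNA went from 7 to 4 with library sizes alone and to 4 with the filter in every library. Leaving out 1 library gave 74 to 4304, 91 to 3969 and 482 to 724 genes past the threshold, 0 to 6070, 0 to 3874 and 0 to 103 at the adjusted p, and 1 to 26, 3 to 24 and 3 to 7 list genes, where the highest counts against control came without control siRNA replicate 2 and the lowest without a knockdown library. Where this left 1 library in a group, that library was assumed to vary like the other group.

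With library sizes alone the median of all genes moved to 0.10 in *TRPS1* siRNA and to 0.11 in *CHD4* siRNA, and 65.8% and 67.3% of the genes past the threshold were higher, against 46% and 47.7%. With the replicate block they were 60.7% and 60.6%. Replicate numbers are shared by the labels only, and deviations of same-numbered libraries correlated with 0.031, 0.0040 and 0.606. Between the knockdowns the replicate block gave *PGR* 0.55 (edgeR adjusted p = 0.000607) and *NCOA1* -0.40 (edgeR adjusted p = 0.00903), past the adjusted p of 0.05 and under a fold of 2.

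Peaks at the members numbered 3 within 5 kb, 19 within 250 kb and 5 among the wider peaks, from 9. Members with a peak numbered 1 within 5 kb, 2 within 50 kb and 2 among the wider peaks, from 4, and *ESR1* had 3 peaks within 5 kb, from 6. The planned count of motifs in the peaks was not run, since no genome was used. Counting error at 7 to 29 counts limits *NR3C1*, and 2 libraries a group limit every member.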

Other observations

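*TFF1*, a secreted protein of luminal cells and a textbook oestrogen receptor target, was chosen here after its values were seen. It had 23 and 20 counts in control siRNA, 29 and 46 counts in *TRPS1* siRNA and 3 and 11 counts in *CHD4* siRNA. The log2 fold change between *CHD4* siRNA and *TRPS1* siRNA was -2.26 (standard error 0.55, edgeR adjusted p = 0.155), which did not pass the correction. The gene entered this test only through the *TRPS1* siRNA libraries, where it is high. Like *PDZK1*, it was highest in both *TRPS1* siRNA libraries and lowest in both *CHD4* siRNA libraries.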
